A study of Mus musculus with 7 samples.

Results

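The unfolded protein response genes described here are 32 genes named beforehand by symbol, among 24421 genes measured by RNA sequencing in eosinophils from damaged mouse muscle. They comprise the stress sensors of the endoplasmic reticulum (ER), the transcription factors these activate, ER chaperones and folding enzymes, degradation factors and parts of the protein translocation channel. All 32 were found in the count table, and 31 passed the filter on low counts. The list was made to ask whether the targets of the transcription factor XBP1 follow Xbp1, a gene already known from these libraries to be higher in one genotype, so the result for Xbp1 is not independent evidence. The libraries came from 3 wild-type samples (WT) and 4 samples of the genotype IL5-Tg, whose name refers to interleukin 5, the cytokine that drives eosinophil production and survival. All 7 were taken at 3 days after ntx, an abbreviation the labels leave unexplained, and the muscle was digested and sorted for CD45-positive, SiglecF-positive cells without NK1, Ly6G and CD3e, with a CD11b gate written as CD11bing. The sources used here do not give strain, age, sex or the promoter of the transgene. The series title names mdx mice, a model of Duchenne muscular dystrophy, but the sample labels give only WT and IL5-Tg, so whether either group carries the mdx mutation is not known here. Nothing states that the samples of a group were separate animals, so each p-value rests only on how much these libraries differ, which may be technical.

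In the unfolded protein response, misfolded protein in the ER engages membrane sensors. IRE1, encoded by Ern1, removes an intron from Xbp1 RNA so that it can encode an active transcription factor, which raises genes for folding, degradation and translocation. ATF6 is cut in the Golgi and raises chaperones such as BiP, and PERK, encoded by Eif2ak3, phosphorylates eIF2alpha and so favours translation of ATF4, which raises amino acid genes and, with CHOP, genes such as Trib3. XBP1 is also known to be needed for eosinophil differentiation, when the granule proteins are made. The counts are per gene, so they do not separate spliced from unspliced Xbp1 RNA.

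Many promoters of these genes carry the ER stress response element, a CCAAT box followed after 9 bases by CCACG, which is bound by NF-Y with ATF6 or XBP1. In the RefSeq windows from 250 bases before to 50 after the annotated start (GRCm38.p6), 28 of the 32 genes had a sequence, and Atf6, Hyou1, Manf and Sec61a1 did not. The pattern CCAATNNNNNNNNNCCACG, searched on both strands, was found in 8 of the 28 genes (28.6%), against 39 of 32851 windows of all genes (0.119%). These sites are shown because they are the sequence feature that ties the chaperone genes to the response. Each is printed 5′ to 3′ in the orientation of the element with 5 flanking bases, and capitals mark the CCAAT box and the CCACG part.

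Hspa5, chr2:34772020-34772048, plus strand: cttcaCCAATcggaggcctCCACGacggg
Hsp90b1, distal site, chr10:86705633-86705661, minus strand: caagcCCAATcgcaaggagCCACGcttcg
Hsp90b1, proximal site, chr10:86705528-86705556, plus strand: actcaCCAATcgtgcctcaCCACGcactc
Calr, chr8:84847070-84847098, plus strand: atgggCCAATgagggtcgaCCACGcgttg
Canx, chr11:50325795-50325823, minus strand: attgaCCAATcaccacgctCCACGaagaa
Creld2, chr15:88819515-88819543, minus strand: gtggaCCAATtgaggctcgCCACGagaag
Pdia6, chr12:17266486-17266514, plus strand: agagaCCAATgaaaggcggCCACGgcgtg
Dnajc3, chr14:118937822-118937850, plus strand: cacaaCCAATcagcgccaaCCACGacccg
Syvn1, chr19:6046527-6046555, plus strand: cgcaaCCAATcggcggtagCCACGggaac

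A shorter relative, ATTGGNCCACG, was found in the window of Herpud1 (chr8:94386372-94386392, plus strand: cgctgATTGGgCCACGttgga) and in 0.0365% of all windows. The ATF4 composite element TGATGCAA was found in Herpud1 and in Chac1 (chr2:119351044-119351061, minus strand: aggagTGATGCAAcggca), and in 0.895% of all windows. The XBP1-type element TGACGTGG or TGACGTGA was found in Hspa5 alone among the 28 genes and in 1.12% of all windows. The window of Xbp1 held none of these letters. A match describes the sequence and does not show binding, and no match speaks only of this window.

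The libraries held 11581365 to 20231509 counts, of which 9665093 to 17447106 were assigned to genes, and the 32 genes together took 0.441% to 0.647% of the assigned counts. Il5, which gives the transgenic group its name, had 338 to 447 CPM (assigned reads scaled to a common library size) in the IL5-Tg libraries and at 0 to 1.39 CPM in WT. All 12 eosinophil markers had counts in every library, and their comparison between the groups is given below. WT replicate 3 stood apart, with 577 summed CPM of fibroblast markers against 2746 to 5601 in the other 6 libraries. The most common low count of a library was taken as the centre of the window of 5 neighbouring counts with the highest mean number of genes. It was 5 reads in WT replicate 1, 8 in WT replicate 2 and 12 in WT replicate 3, while IL5-Tg libraries had 1 to 4 (two-sided exact permutation p = 0.0286, the smallest that 35 splits allow, adjusted p = 0.0571 over 4 measures). The share of reads assigned to no feature also separated the groups, with 16.8% ± 1.33 (SD) for the 3 WT libraries against 11.05% ± 1.87 (SD) for the 4 IL5-Tg libraries, and the same exact permutation p of 0.0286 and adjusted p of 0.0571. Genes detected numbered 12483 ± 1487 in WT and 14114 ± 351 in IL5-Tg libraries (exact permutation p = 0.0571, adjusted p = 0.0762). The part of these last measures in the results was not tested. Dividing the counts of each library by its most common low count left Xbp1 at 2.08 (log2 fold change, edgeR adjusted p = 0.00571) and no other member called. In sorted bulk samples, fewer cells of a type and less RNA per cell cannot be told apart.

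Xbp1 rose 4.17-fold in IL5-Tg libraries, and none of the other 30 tested genes passed the test in either direction. Atf4 and Ddit3, which encode the effectors ATF4 and CHOP of the PERK branch, had 0.495 and 0.506 of the WT level without passing the test. Genes for chaperones, disulfide isomerases, degradation and translocation had log2 fold changes from -0.49 to 0.45. A positive log2 fold change is higher in IL5-Tg, and a gene was called at an edgeR adjusted p under 0.05 over the 12428 genes tested.

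Xbp1 is annotated on the plus strand of chromosome 11, from 5520659 to 5525893 (GENCODE vM21, mm10). The WT libraries had 132, 128 and 109 CPM of it in replicate order. The IL5-Tg libraries, in the same order, had 509, 679, 537 and 325 CPM. The groups did not overlap, and IL5-Tg replicate 4 was the lowest of its group. Mean levels were 123 ± 11.8 CPM (SD, n = 3) for WT and 513 ± 145 CPM (SD, n = 4) for IL5-Tg. By edgeR the difference was 2.06 on the log2 scale, with an SE of 0.29, a 95% interval from 1.41 to 2.71 and an adjusted p of 0.0172.

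The size of the Xbp1 difference varied less than its call. Over 17 alternative settings the log2 fold change was 1.69 to 2.22 and the adjusted p was 1.53e-09 to 0.120. The call was lost without WT replicate 1 (edgeR adjusted p = 0.120), WT replicate 2 (0.0505), IL5-Tg replicate 1 (0.0848), IL5-Tg replicate 2 (0.0734) or IL5-Tg replicate 3 (0.0643), and with the number that begins each sample title as a block (0.0821). With fibroblast marker level as a covariate the log2 fold change was 2.04 (edgeR adjusted p = 0.0103), and without WT replicate 3 it was 2.01 (0.0178).

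**Figure D1:**
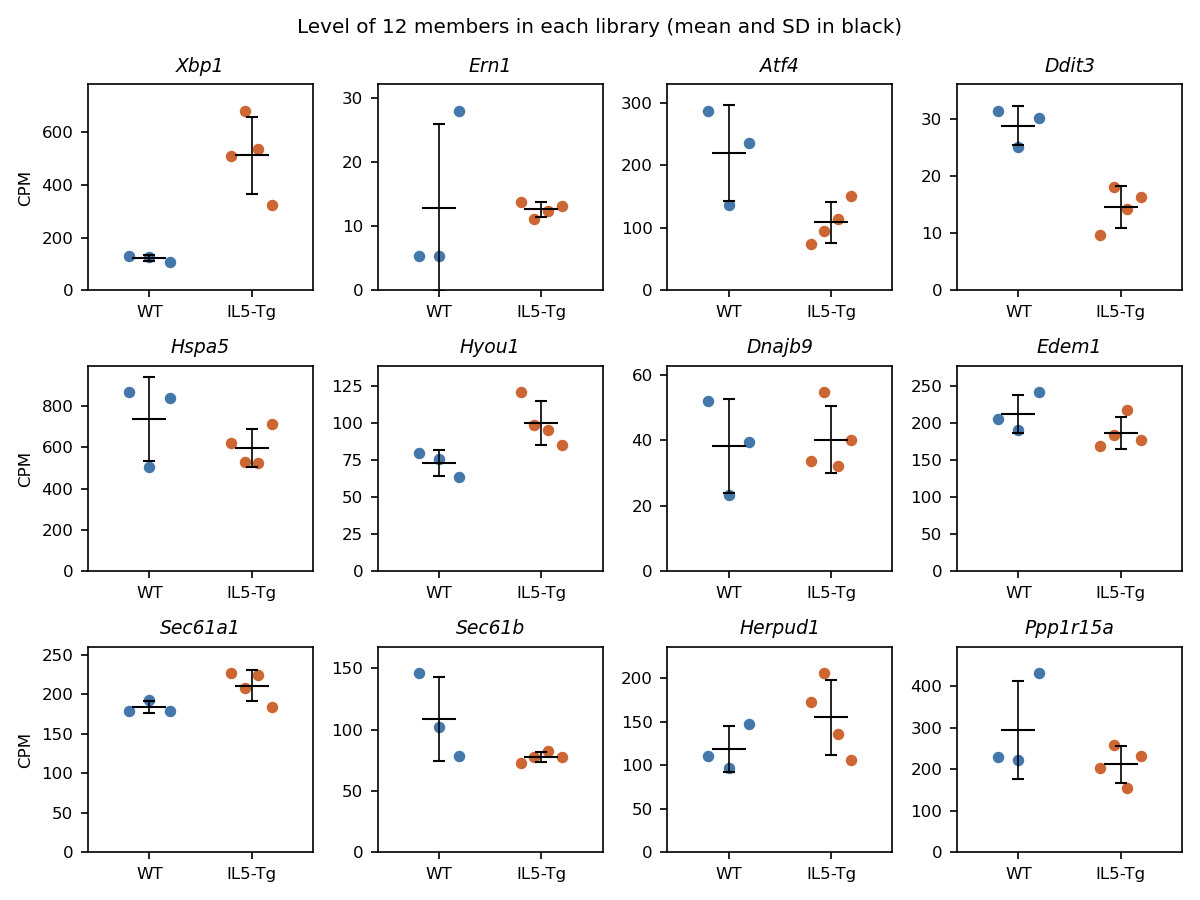
Level in CPM (vertical axis, starting at 0) of 12 genes of the unfolded protein response in each WT (blue) and IL5-Tg (orange) library, with the mean and SD of 3 and 4 libraries in black. The 4 IL5-Tg values of Xbp1, from 325 to 679 CPM, lie above all WT values, while Dnajb9, Edem1 and Sec61a1 overlap between the groups.

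Per kilobase of exon, Xbp1 went from the 12th to the 2nd place among the 32 genes. On this scale WT libraries had 37.8 ± 3.63 CPM per kilobase (SD, n = 3) of Xbp1, and IL5-Tg libraries 158 ± 44.7 (SD, n = 4). Calr, the lectin chaperone calreticulin, was first in both groups, at 251 ± 69.3 and 300.3 ± 59.9 CPM per kilobase. In IL5-Tg libraries the neighbours of Xbp1 in this order were Hspa5 at 141 ± 21.3 and Hsp90b1 at 126 ± 29.8 CPM per kilobase, which are within the spread of Xbp1. Ern1, at 1.58 and 1.55 CPM per kilobase, and Chac1, at 0.160 and 0.208, were last.

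With Xbp1 itself set aside, counts over the list stayed near the shares of all genes. The list held 1 gene called higher of 31 tested, which is Xbp1 itself, against 0.338% of all tested genes, and 0 called lower against 0.0724%. DESeq2 and limma-voom likewise called Xbp1 and no other member. At an unadjusted p under 0.05 there was 1 higher gene, Xbp1, against 3.49% of all genes, and 2 lower genes, Atf4 and Ddit3, against 5.54%. Groups did not overlap for 2 higher genes, Xbp1 and Hyou1, against 4.76% of all genes, and for 1 lower gene, Ddit3, against 4.6%. The median log2 fold change was -0.02 over the list and 0.03 over all tested genes, with 15 positive and 16 negative values in the list.

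**Figure D2:**
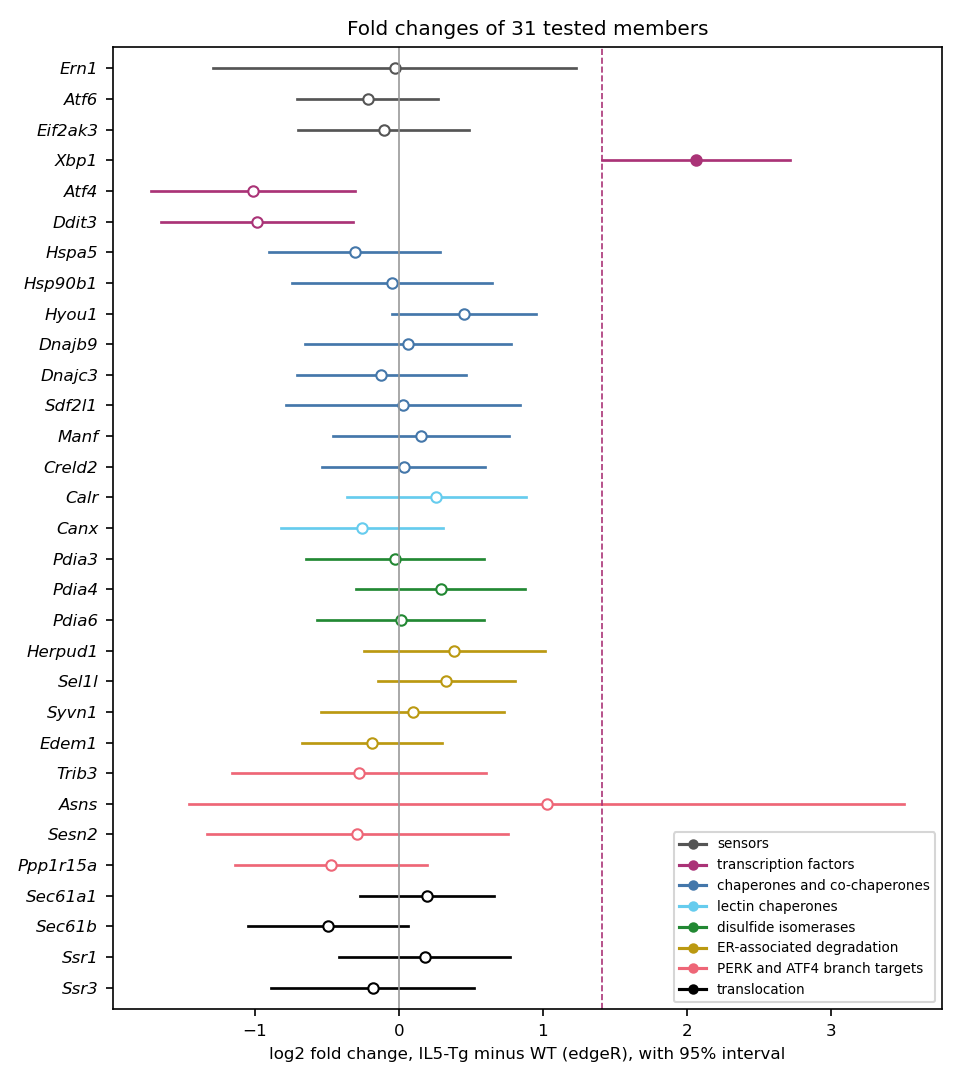
Log2 fold change of the 31 tested genes (horizontal axis, IL5-Tg minus WT, edgeR) with 95% intervals, coloured by role. The filled point is Xbp1, called at an adjusted p under 0.05, and the dashed line marks the lower end of its interval, 1.41. Every other interval except that of Asns ends to the left of that line.

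The 3 sensors did not pass the test. Atf6 levels in WT were 42.8, 48.7 and 46.8 CPM, with 34.3 to 42.9 CPM in IL5-Tg libraries (log2 fold change -0.22, edgeR adjusted p = 0.880). Eif2ak3, which encodes PERK, was at 21.1 to 26.7 CPM in WT and 17.8 to 25.2 CPM in IL5-Tg libraries (log2 fold change -0.11). Both genes varied little among libraries of a group. Ern1, whose product splices Xbp1 RNA, had 28.0 CPM in WT replicate 3 but 5.38 and 5.39 CPM in the other WT libraries, and 11.2 to 13.9 CPM in IL5-Tg libraries. The IL5-Tg libraries thus lay between WT replicate 3 and the other two. Its log2 fold change was -0.03 ± 0.57 (SE) with all libraries, 1.25 without WT replicate 3 (edgeR adjusted p = 0.250) and -0.39 without WT replicate 1 (0.887).

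Among the transcription factors, Atf4 and Ddit3 lay on the other side of zero from Xbp1. Atf4 in WT was at 286, 136 and 236 CPM, in replicate order. In IL5-Tg replicates 1, 2, 3 and 4 it was at 74.2, 95.6, 114 and 151 CPM. WT replicate 2 lay within the IL5-Tg range, so the groups overlapped. The log2 fold change of Atf4 was -1.01 ± 0.32 (SE; 95% interval -1.72 to -0.30, edgeR adjusted p = 0.341), and -1.24 to -0.59 over the alternatives.

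Ddit3 levels in WT were 31.4, 25.1 and 30.2 CPM, compared with 9.74, 18.1, 14.3 and 16.5 CPM in the IL5-Tg libraries. No IL5-Tg library reached the lowest WT value. Its log2 fold change was -0.98 ± 0.30 (SE; 95% interval -1.65 to -0.32, edgeR adjusted p = 0.320). Exons of Ddit3 overlap those of Mars on the opposite strand in GENCODE vM21, and no source used here says whether counting used strand. Exons of 10 more members overlap other annotated genes, namely Eif2ak3, Hsp90b1, Dnajb9, Manf, Pdia3, Pdia4, Pdia6, Syvn1, Ppp1r15a and Sec61a1, of which 4 are among the genes linked to XBP1 here. The overlap of Pdia4 is on the same strand, and Hsp90b1 and Manf have overlaps on both strands. Counting by strand would not resolve the same-strand overlaps. For the rest the limit is that of Ddit3. Mars, a tRNA synthetase gene, was at 62.0 CPM in WT and 83.1 CPM in IL5-Tg libraries (log2 fold change 0.42, edgeR adjusted p = 0.855).

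Of the 12 eosinophil markers, 3 genes of granule proteins were called higher by edgeR, in the same libraries as Xbp1. Prg2, the major basic protein gene, was at 104 to 144 CPM in WT and 423 to 1122 CPM in IL5-Tg libraries (6.79-fold, edgeR adjusted p = 0.0160). The ribonuclease genes Ear1 and Ear6 were 9.22-fold and 12.1-fold higher (edgeR adjusted p = 0.00311 and 0.0268). Epx and Ear2 lay higher without overlap and did not pass, at edgeR adjusted p = 0.402 and 0.233. The other 7 markers overlapped between the groups. Of these, Il5ra and Ccr3 had 0.512 and 0.664 of the WT level (edgeR adjusted p = 0.363 and 0.694), and the rest, among them Siglecf, had positive log2 fold changes. How these levels bear on Xbp1 was not tested.

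Some lists of other cells' markers separated the groups in their sums, and others did not. The sums for macrophages and monocytes overlapped, at 3729 to 5354 CPM in WT and 4931 to 5870 CPM in IL5-Tg libraries. Those for fibroblasts, endothelium, B cells, T, NK and innate lymphoid cells, dendritic cells and muscle progenitors also overlapped. Neutrophil markers, 10 of 10 in the table, summed to 9303 to 10497 CPM in WT and 2532 to 4296 CPM in IL5-Tg libraries, and at least 8 of the 10 had counts in each library. Most of that sum was Retnlg, at 8849 to 10302 and 2434 to 4224 CPM, which edgeR called lower (adjusted p = 0.0416). Ngp of the same list went the other way and was called higher, from 0 to 0.362 CPM in WT to 26.3 to 33.5 CPM in IL5-Tg libraries (edgeR adjusted p = 0.00311). Csf3r lay lower without overlap, at 27.6 to 73.5 CPM in WT and 8.22 to 27.3 CPM in IL5-Tg libraries (edgeR adjusted p = 0.327). For the rest of that list the groups overlapped. S100a8 was at 157, 65.1 and 2.36 CPM in WT, in replicate order, and 5.43 to 10.8 CPM in IL5-Tg libraries (edgeR adjusted p = 0.407). S100a9 was at 171, 43.2 and 5.77 CPM in WT and 4.78 to 10.3 CPM in IL5-Tg libraries (edgeR adjusted p = 0.316). Both overlapped through WT replicate 3. Lcn2, Mmp8 and Cxcr2 had negative log2 fold changes, Ltf a positive one, and Camp was not tested. The 9 markers of mast cells and basophils, all in the table, summed to 238 to 528 CPM in WT and 128 to 140 CPM in IL5-Tg libraries. Most of the WT sum was Hdc, at 134 to 391 CPM in WT and 37.5 to 66.9 CPM in IL5-Tg libraries, which was called lower (edgeR adjusted p = 0.0236). Cpa3, Mcpt4, Cma1 and Tpsb2 also lay lower without overlap and did not pass (edgeR adjusted p = 0.762, 0.462, 0.459 and 0.528). They were at 6.55 to 14.1, 16.3 to 33.8, 11.2 to 22.2 and 24.2 to 35.8 CPM in WT. In IL5-Tg libraries they were at 0 to 6.05, 0 to 6.23, 0.0769 to 5.76 and 0 to 9.77 CPM. Gata2 of that list lay the other way without overlap, at 14.3 to 35.3 and 56.3 to 75.0 CPM (edgeR adjusted p = 0.126). Mcpt8, Fcer1a and Ms4a2 overlapped between the groups and were not tested. Muscle fibre markers, 8 of 8 in the table, summed to 65.0 to 283 CPM in WT and 348 to 1061 CPM in IL5-Tg libraries. Acta1, Ckm and Atp2a1 lay higher without overlap and did not pass (edgeR adjusted p = 0.631, 0.584 and 0.148). Myh4, Myh1, Tnnt3, Pvalb and Mb overlapped between the groups, and Mb went the other way (log2 fold change -1.16). The part of these marker lists in the results was not tested.

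Cells known for high Xbp1 were also examined. Of 10 plasma cell markers 7 were in the table, and they summed to 0.756 to 28.9 CPM in WT and 16.7 to 40.2 CPM in IL5-Tg libraries, mostly Sdc1, which other cells also express. The immunoglobulin genes Igkc, Ighm and Igha were the markers not in the table, so the sum leaves them out. Jchain, the joining chain of secreted antibodies, was at 0 in all WT libraries and at 0, 0, 0 and 0.0519 CPM in IL5-Tg libraries. Irf4 of that list was at 0 to 1.87 CPM in WT and 2.02 to 3.64 CPM in IL5-Tg libraries, without overlap (edgeR adjusted p = 0.799). Immature granulocyte markers, 7 of 7 in the table, summed to 40.9 to 81.4 CPM in WT and 112 to 126 CPM in IL5-Tg libraries, mostly Cd34, which lay higher without overlap, at 27.8 to 73.4 and 105 to 119 CPM (edgeR adjusted p = 0.376). Kit, Prtn3 and Ctsg overlapped between the groups. They were at 0 to 10.3, 1.37 to 2.84 and 0 to 0.739 CPM in WT, and 2.92 to 4.74, 1.45 to 2.46 and 0 to 0.375 CPM in IL5-Tg libraries. Ms4a3 was at 0 in all 7 libraries, Elane in 6 of them, and the highest value of Mpo was 2.46 CPM. The part of these markers in the results was not tested.

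The 10 genes linked here to XBP1, by textbook knowledge and with overlap between branches, were Dnajb9, Dnajc3, Edem1, Pdia6, Sec61a1, Sec61b, Ssr1, Ssr3, Sdf2l1 and Syvn1. Of these, 0 were called by edgeR, DESeq2 or limma-voom, and 0 had an unadjusted p under 0.05. Over all tested genes edgeR called 0.338% higher and 0.0724% lower, and 3.49% and 5.54% had an unadjusted p under 0.05. Counts of 0 among 10 genes are therefore near the share of all genes. The log2 fold changes of the 10 genes ran from -0.49 to 0.20 with a median of 0.02, beside 2.06 for Xbp1. All 10 intervals ended below a 2-fold increase, the highest at 0.84 on the log2 scale, and below the lower end of the Xbp1 interval. The lists of linked genes share no gene, so this range depends on where each gene was placed. The 11 ATF6-linked genes, which include Hyou1, Herpud1, Sel1l and Pdia4, ran from -0.31 to 0.45 with a median of 0.16. All 11 of their intervals also ended below the lower end of the Xbp1 interval.

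Dnajb9, an ER co-chaperone often used as a readout of spliced XBP1, had 52.0, 23.4 and 39.5 CPM in the WT libraries. In IL5-Tg replicates 1, 2, 3 and 4 it was at 33.6, 54.6, 32.3 and 40.1 CPM. All IL5-Tg values but that of replicate 2 lay inside the WT range, and the fold was 1.05 with a 95% interval from 0.638 to 1.72. Edem1, which takes misfolded glycoproteins towards degradation, was at 205, 191 and 241 CPM in WT and 168, 184, 217 and 177 CPM in IL5-Tg libraries. Its fold was 0.879, with an interval from 0.629 to 1.23. WT replicate 3 had the highest Edem1 value of the 7 libraries, and IL5-Tg replicate 1 the lowest.

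Translocation genes, whose products carry new proteins into the ER, showed no common direction. Sec61a1, the channel subunit, was at 179, 193 and 179 CPM in WT and 226, 208, 224 and 184 CPM in IL5-Tg libraries (log2 fold change 0.20 ± 0.21 SE, edgeR adjusted p = 0.887). Sec61b, a small subunit of the same channel, was at 146, 102 and 78.2 CPM in WT and at 72.4 to 82.9 CPM in IL5-Tg libraries (log2 fold change -0.49 ± 0.25 SE, edgeR adjusted p = 0.645). Sec61b values were spread over a wider range in WT than in IL5-Tg libraries. Ssr1 and Ssr3, subunits of the translocon-associated protein complex, were at log2 fold changes of 0.18 and -0.18. Both were highest in WT replicate 1, at 154 and 198 CPM, and lowest in WT replicate 2, at 75.8 and 86.9 CPM.

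Chaperones and co-chaperones of the ER lumen were at -0.31 to 0.45. Hspa5, which encodes BiP, the main HSP70 chaperone of the ER and a standard mark of ER stress, had 864, 505 and 838 CPM in the WT libraries. It was at 619, 528, 521 and 713 CPM in IL5-Tg replicates 1, 2, 3 and 4. The 4 transgenic libraries lay between the lowest and the highest WT library, and the log2 fold change was -0.31 ± 0.27 (SE; edgeR adjusted p = 0.847). Its interval ended at 1.22-fold. Hsp90b1, the HSP90 of the ER, was at 327 to 732 CPM in WT and 424 to 685 CPM in IL5-Tg libraries (log2 fold change -0.04).

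Hyou1, an exchange factor and holdase that works with BiP, was the 1 member besides Xbp1 whose IL5-Tg libraries all lay above WT. WT libraries had 80.1, 75.9 and 63.7 CPM of it, and IL5-Tg libraries 121, 98.8, 95.8 and 85.1 CPM. The gap between the groups was narrow, and the log2 fold change was 0.45 ± 0.23 (SE; 95% interval -0.05 to 0.95, edgeR adjusted p = 0.629). The remaining co-chaperones were Dnajc3, which assists BiP (log2 fold change -0.12), the BiP partner Sdf2l1 (0.03), the secreted protein gene Manf (0.16) and Creld2 (0.03). Sdf2l1 differed more within WT, from 36.0 to 97.6 CPM, than between the group means of 66.7 and 68.3 CPM.

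Lectin chaperones and disulfide isomerases, which fold glycoproteins and form their disulfide bonds, did not pass the test either. Calr was at 509 to 905 CPM in WT and 699 to 1101 CPM in IL5-Tg libraries, and its membrane-bound relative Canx at 202 to 297 and 166 to 251 CPM. The log2 fold changes were 0.26 and -0.25. Pdia3, the isomerase that works with both, was at 268 to 507 CPM in WT and 284 to 408 CPM in IL5-Tg libraries (log2 fold change -0.02), while Pdia4 and Pdia6 were at 0.29 and 0.01. For each of these 5 genes the groups overlapped.

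Of the degradation genes, Herpud1 had the largest positive value. This ER membrane protein gene, whose window carries both the shorter element and the ATF4 element, had 111, 97.4 and 148 CPM in the WT libraries. It was at 173, 206, 135 and 107 CPM in IL5-Tg replicates 1, 2, 3 and 4, and the groups overlapped (log2 fold change 0.39 ± 0.28 SE, edgeR adjusted p = 0.796). Sel1l, the scaffold of the main degradation complex, was at 63.8 to 76.4 CPM in WT and 73.2 to 91.6 CPM in IL5-Tg libraries (log2 fold change 0.33 ± 0.21 SE). Syvn1, the ubiquitin ligase bound by SEL1L, was at 29.7 to 49.1 and 32.3 to 58.3 CPM (log2 fold change 0.10).

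The 8 genes printed above with an ER stress response element had log2 fold changes from -0.31 for Hspa5 to 0.26 for Calr and a median of -0.02. None was called by edgeR. Of all 16 tested genes whose window holds the element, 0 were called, and the median was 0.02. Over all tested genes edgeR called 0.338% higher and 0.0724% lower, so 0 of 16 is near the share of all genes.

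The targets of the PERK and ATF4 branch were low or variable. Ppp1r15a, which encodes GADD34, the subunit that leads a phosphatase to eIF2alpha, was at 229, 223 and 431 CPM in WT and 204, 258, 155 and 233 CPM in IL5-Tg libraries. WT replicate 3 was the high library, and the log2 fold change was -0.47 ± 0.30 (SE; edgeR adjusted p = 0.746) with all libraries and -0.07 without it. Sesn2, a stress-induced regulator of mTORC1, was at 12.02, 39.2 and 62.9 CPM in WT and 19.5 to 36.0 CPM in IL5-Tg libraries, and Trib3, a pseudokinase induced by CHOP, at 7.25 to 19.6 and 9.26 to 11.4 CPM. Their log2 fold changes of -0.29 and -0.28 became 0.30 and 0.19 without WT replicate 3, and -0.71 and -0.56 without WT replicate 1.

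Asns, which makes asparagine, had 0 reads in WT replicate 3, while the remaining WT libraries had 8.58 and 7.92 CPM. The 0 allows up to 0.284 CPM by a floor of 3 reads, or 3.40 CPM if each molecule gave 12 reads, and such floors cover counting error only. In IL5-Tg libraries Asns was at 4.92 to 15.5 CPM. Its log2 fold change of 1.03 had an interval from -1.45 to 3.51, so it was the 1 tested gene in which a rise as large as that of Xbp1 lay inside the interval. Chac1, a glutathione-degrading enzyme induced by ATF4 and CHOP, had 13, 0 and 0 reads in WT and 2 to 8 reads in IL5-Tg libraries and was not tested.

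**Figure D3:**
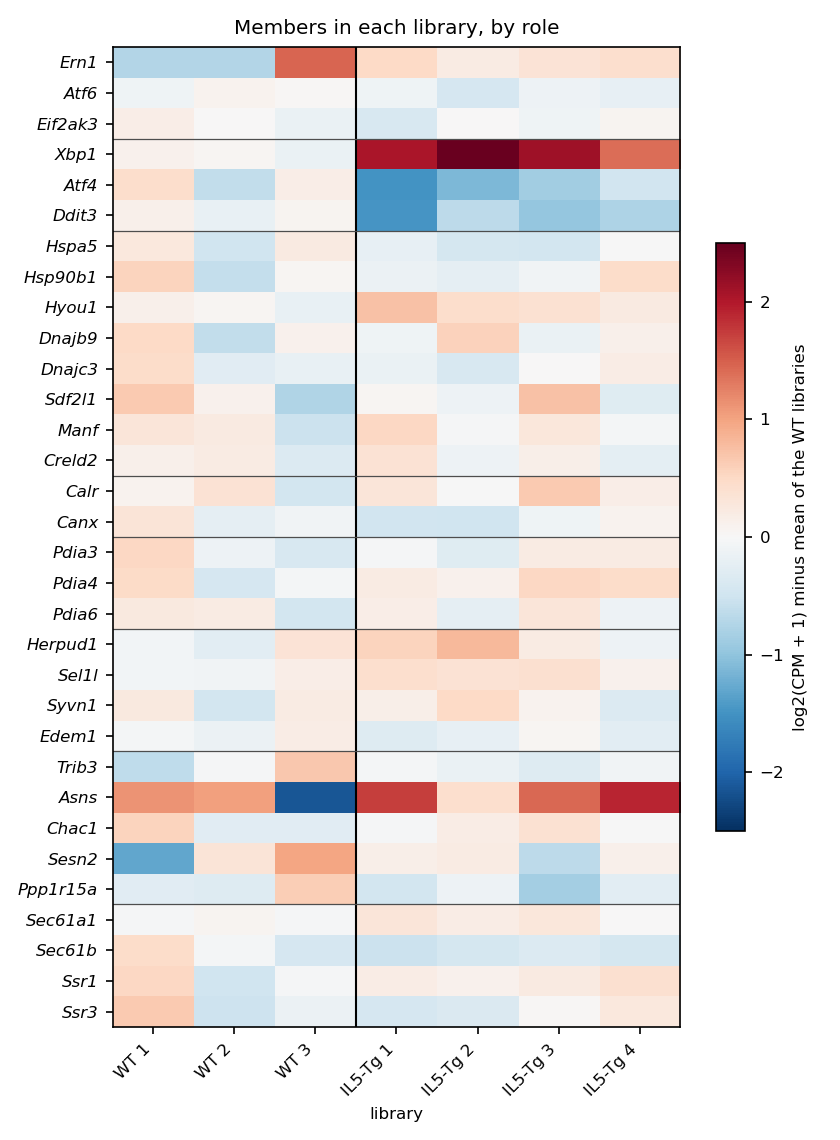
Level of all 32 genes (rows, grouped by role) in the 7 libraries (columns), as log2(CPM + 1) minus the mean of the WT libraries. Xbp1 is the row that is red across the 4 IL5-Tg libraries at 1.40 to 2.46, Atf4 and Ddit3 are blue in the same columns, and Ern1, Asns and Sesn2 differ in colour among the WT libraries, Asns also being red in IL5-Tg replicates 1, 3 and 4.

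Taking each branch by its median in a library, on the same log2(CPM + 1) scale relative to the WT mean, separated Xbp1 from its linked genes. The median of the 10 XBP1-linked genes was -0.21 to 0.46 in WT and -0.16 to 0.07 in IL5-Tg libraries, whereas Xbp1 itself was at 1.40 to 2.46 in IL5-Tg libraries. The median of the 11 ATF6-linked genes was -0.12 to 0.27 in WT and -0.03 to 0.31 in IL5-Tg libraries. That of the 7 genes linked to PERK and ATF4 was -0.19 to 0.17 in WT and -0.66 to -0.05 in IL5-Tg libraries. WT replicate 1 had the highest WT value for 21 of the 32 genes, and without it the median log2 fold change over the list was 0.19 rather than -0.02.

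**Figure D4:**
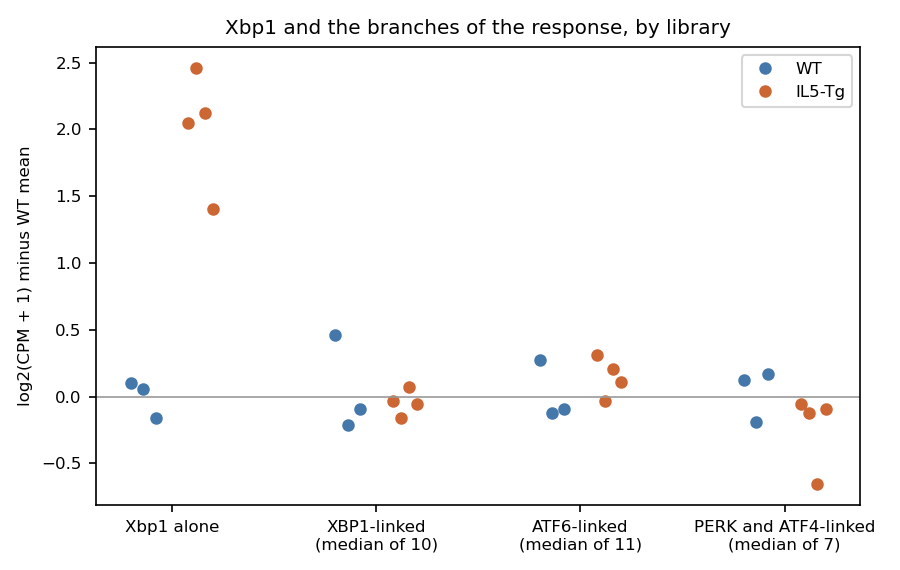
Level of Xbp1 and median level of 3 sets of linked genes in each library (points), as log2(CPM + 1) minus the mean of the WT libraries. Xbp1 separates the IL5-Tg libraries (orange, 1.40 to 2.46) from WT (blue), and the medians of the 3 sets overlap between the groups.

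Intervals show what the data leave possible. For 29 of the 30 tested genes other than Xbp1 (96.7%), the 95% interval ended below 1.41, the lower end of the Xbp1 interval, and for 27 (90.0%) it ended below a 2-fold increase. Over all 12428 tested genes these shares were 65.5% and 52.0%, and the list had a smaller median SE, 0.28 against 0.40. A change below 2-fold therefore lies within most of these intervals, and no gene was shown to be unchanged.

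To see the rest of the same pathways, 180 further genes in 9 lists were examined, of which 174 were tested. Of these, 0 were called higher or lower by edgeR, 5 were higher and 8 lower at an unadjusted p under 0.05, and DESeq2 called 1, Wars, while limma-voom called 0. The median log2 fold change was 0.07, with 100 positive values. In each direction the share with an unadjusted p under 0.05 was below that of all tested genes. Of all tested genes edgeR called 0.338% higher and 0.0724% lower.

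Among the aminoacyl-tRNA synthetases, which charge tRNAs and include ATF4 targets, 12 of 13 had positive values and the median was 0.39. Wars, for tryptophan, was at 48.9 to 56.3 CPM in WT and 79.1 to 124 CPM in IL5-Tg libraries, without overlap (log2 fold change 0.94 ± 0.24 SE, edgeR adjusted p = 0.186, DESeq2 adjusted p = 0.0290). Yars, for tyrosine, was at 0.71. The other targets of the integrated stress response lay on both sides, 13 of 25 positive. Slc7a1, a carrier of cationic amino acids, was at 31.7 to 62.3 CPM in WT and 19.0 to 24.3 CPM in IL5-Tg libraries (log2 fold change -1.06, edgeR adjusted p = 0.221), and Jdp2, a relative of the AP-1 factors, was at -0.82.

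In the list of translocation, signal recognition and signal peptidase genes 8 of 21 values were positive, with Srp9, of the signal recognition particle, at -0.83 and the signal peptidase subunit Sec11c at -0.72. Vesicle coat and retrieval genes had 17 of 29 positive values. Sec24a, a cargo adaptor of COPII vesicles, was at 7.50 to 27.7 CPM in WT and 30.5 to 46.7 CPM in IL5-Tg libraries (2.22-fold, edgeR adjusted p = 0.429), and Tmed2, a cargo receptor, was at -0.80. Of the further degradation factors 10 of 19 were positive, and both named genes had groups that did not overlap. The ubiquitin-conjugating enzyme gene Ube2g2 was at 0.75 (edgeR adjusted p = 0.331) and Ubxn4, which recruits the segregase VCP, at -0.79 (edgeR adjusted p = 0.307).

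The lists of further folding enzymes, glycosylation genes, eIF2alpha regulators and sensor partners had 9 of 20, 11 of 17, 8 of 12 and 12 of 18 positive values, and 0 called by edgeR, DESeq2 or limma-voom. Mbtps1, the protease that makes the first cut in ATF6, was at 43.9 to 52.3 CPM in WT and 61.4 to 79.8 CPM in IL5-Tg libraries (log2 fold change 0.54, edgeR adjusted p = 0.504). Creb3l1, an ATF6 relative, was at 1.19 with overlapping groups. The thioredoxin-like genes Txndc11 and Txndc12 were at -0.62 and 0.49, Lman2 and Ganab of the glycosylation list at 0.33 and 0.31, and Eif2b2 and Ppp1cb at 0.91 and -0.55.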

How the data were processed

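RNA of sorted cells from 7 samples was sequenced. The libraries were stranded and sequenced in pairs on a NextSeq, per the labels' protocols. The authors deposited whole-number counts for each gene symbol, not normalized. Tools named in the submitters' processing notes, without their roles, are bcl2fastq 2.20, STAR and Bowtie, and the build is mm10. The sources used here do not give the counting program, annotation or strand setting. The 2 rows naming no gene, 9.15% to 18.2% and 0.750% to 0.943% of each library, were left out.

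Genes were tested with edgeR 4.0.16 (quasi-likelihood, R 4.3.3) on all 24421 genes and 7 libraries (TMM, filterByExpr, robust estimation, genotype as the only term), with Benjamini-Hochberg adjustment over 12428 tested genes and a threshold of 0.05. The SE is the log2 fold change over the root of F, and 95% intervals from the t distribution. CPM used TMM-scaled library sizes, and exon lengths were those of GENCODE vM21. Replicate numbers follow accession order and pair nothing. Chi-square per gene between libraries of a group was 26.0 to 149, far above sampling noise. The procedure was also run on simulated counts, and the outcome of that run is not given here.

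The members, branches and lists were chosen with earlier results of these data known. The rule for named genes took every member, Il5 and, per further list without a call, the 2 genes with the smallest p. The alternatives tried were DESeq2 1.42.0, upper-quartile or RLE scaling, limma-voom (limma 3.58.1) with quality weights, no robust estimation, 2 count filters, division by the most common low count, fibroblast markers or title starts as covariates, and leaving out each library.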

Additional observations from a re-analysis of the deposited data

Results flagged for a closer look

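Sesn2, the stress-induced regulator of mTORC1, was lower in IL5-Tg replicate 3 than in the rest of its group. It was at 19.5 CPM there and at 34.4 to 36.0 CPM in the other 3 IL5-Tg libraries, so on the log2(CPM + 1) scale the gap was 0.922 of the range of the group. This was the 1 such library among 32 genes examined in the IL5-Tg group, and chance alone marks about 1 in 20 groups.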

How the results depend on the processing

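Over 17 alternative settings, the 30 tested genes other than Xbp1 gave 509 values, of which 0 passed the threshold. The log2 fold change of Xbp1 kept its direction in all 17. It missed the threshold with title starts as a block (1.69, edgeR adjusted p = 0.0821), and over the 7 settings that leave out a library it was 1.90 to 2.22. The number of members called higher was 0 with title starts as a block and 0 to 1 when a library was left out, being 0 without WT replicate 1, WT replicate 2 or IL5-Tg replicates 1, 2 or 3. The number called lower was 0 in every setting. The median log2 fold change over the members was -0.087 to 0.187 when a library was left out. DESeq2 called 1 related gene higher, where edgeR called 0. Over all genes, edgeR called 42 higher and 9 lower, DESeq2 141 and 84, limma-voom 16 and 6, and leaving out a library gave 14 to 79 higher and 1 to 31 lower. The causes were not tested. No paired analysis was possible because replicate numbers follow accession order and pair nothing, other than the fit with title starts as a block. Title starts are shared by 3 pairs of libraries, of which 2 hold a library of each genotype. Intervals this wide leave changes under 2-fold undetected for most genes.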

Other observations

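Outside the genes named above, 8 tested genes have an ER stress response element in their promoter window. They were named after the search. Their log2 fold changes were -0.70 for Hnrnpa3, -0.25 for Alg12, a glycosylation enzyme, -0.18 for Pan2, 0.40 for Adcy3, 0.67 for Ptgdr2, the prostaglandin D2 receptor of type 2 immune cells, 1.33 for Spats2l, 1.998 for Zfp57 and 6.97 for Acacb. None passed by edgeR, and the adjusted p of Acacb was 0.287, with an SE of 1.91.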
